A study of Bos taurus with 14 samples.

Results

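The genes described here make up the extracellular matrix and the basement membranes of cattle conceptuses on Day 15 of gestation. Members were found by gene symbol: every probe set whose single symbol names a collagen chain or a laminin chain, or is FN1, SPARC, THY1, VIM, DCN, LUM, POSTN, FBN1, LOX, MGP, BGN, NID1, NID2, HSPG2, FBLN1, FBLN5, ELN, TNC or VCAN. This gave 88 of 24016 probe sets and 47 of 9155 named genes. By role, 25 probe sets of 14 genes belong to the basement membrane, 61 probe sets of 31 genes to the interstitial matrix, and 2 are THY1 and VIM, proteins of mesenchymal cells. The array carried no singly annotated probe set for COL4A2 or LAMA1.

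The study profiled 14 whole Holstein conceptuses, the embryo with its membranes, each on 1 Affymetrix bovine array. All came from superovulated donor cows inseminated with semen of 1 bull; embryos were flushed on Day 6.5, graded by their morphology, transferred 2 to 6 per recipient heifer with others of their grade, and recovered on Day 15. The groups were Grade 3 (n = 3), long Grade 1 (n = 5), short Grade 1 (n = 5) and 1 Grade 1 conceptus with no recorded length, so that Grade 1 held 11 in all. Males made up 2 of 3 Grade 3, 4 of 11 Grade 1, 1 of 5 long and 2 of 5 short conceptuses. Which animals shared a dam or a recipient is unlabelled. Conceptuses were treated as independent, and p-values reflect their spread alone. Sample titles begin with a prefix whose meaning is not stated. No prefix held both Grade 3 and Grade 1 conceptuses, so differences by grade cannot be told apart from differences between prefixes. Only 2 prefixes held both long and short conceptuses, so length is partly mixed with prefix too. In RNA of a whole conceptus, fewer cells of a type and less RNA per cell cannot be told apart.

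Basement membranes are thin sheets on which epithelia rest. Laminin heterotrimers and type IV collagen each form a network there, which nidogens and the proteoglycan perlecan link, while interstitial matrix is built of fibrillar collagens, fibronectin, elastic fibres and proteoglycans laid down largely by mesenchymal cells. In the elongating ruminant conceptus, an inner layer of extraembryonic endoderm lines the trophectoderm. In the mouse the endoderm of the yolk sac is known for making large amounts of type IV collagen, laminin and SPARC.

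Signals below are log2 expression values; a difference of 1 is a doubling. For orientation, array medians lay between 5.62 and 5.72, and the median probe set averaged 5.66 over the 14 arrays. Probe sets differ in how well they bind, so a low value may be a weak probe. Levels are set against the median probe set only as a rough guide, and do not show which gene has more RNA. Of the 8 measured trophectoderm markers 7 lay above 5.66, as did 7 of 11 hypoblast, 2 of 2 mesoderm and 1 of 3 epiblast markers. The counts were 2 of 12 for blood and immune cells, 1 of 8 for endometrium and 0 of 9 for endothelium. The labels of short replicate 1 contradict each other on its length; its characteristics field was followed, and the called differences between lengths are given with and without it, as are uncalled ones, among the probe sets named, that it moved by over 1.5 times. Over the 30 member probe sets above 5.66, short replicate 1 was the lowest of all 14 conceptuses in 12.

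Long conceptuses had higher relative signal than short ones for the type IV collagen chain COL4A1, perlecan (HSPG2), the collagen-binding glycoprotein SPARC and the surface glycoprotein THY1, by 1.30 to 1.5 fold. These 4 probe sets were the members called in limma at an adjusted p under 0.05, which is 4.55% of 88 against 6.57% of all 24016 probe sets; 4 were higher (2.7% of all probe sets were) and 0 lower (3.87%). A further 6 member probe sets had an unadjusted p under 0.05, which makes 10 of 88 (11.4%) against 22% of all. Means were higher in long conceptuses for 47 of 88 members (53.4%), against 44.3% of all probe sets. With both directions pooled, the list thus held no larger share of differences than the array did. By direction, 9.09% of members had an unadjusted p under 0.05 and were higher, against 9.06% of all. For lower the shares were 2.27% and 12.9%. No member separated the lengths completely: values of long and short conceptuses did not overlap in 0 of 88 member probe sets, against 8.42% of all.

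**Figure D1:**
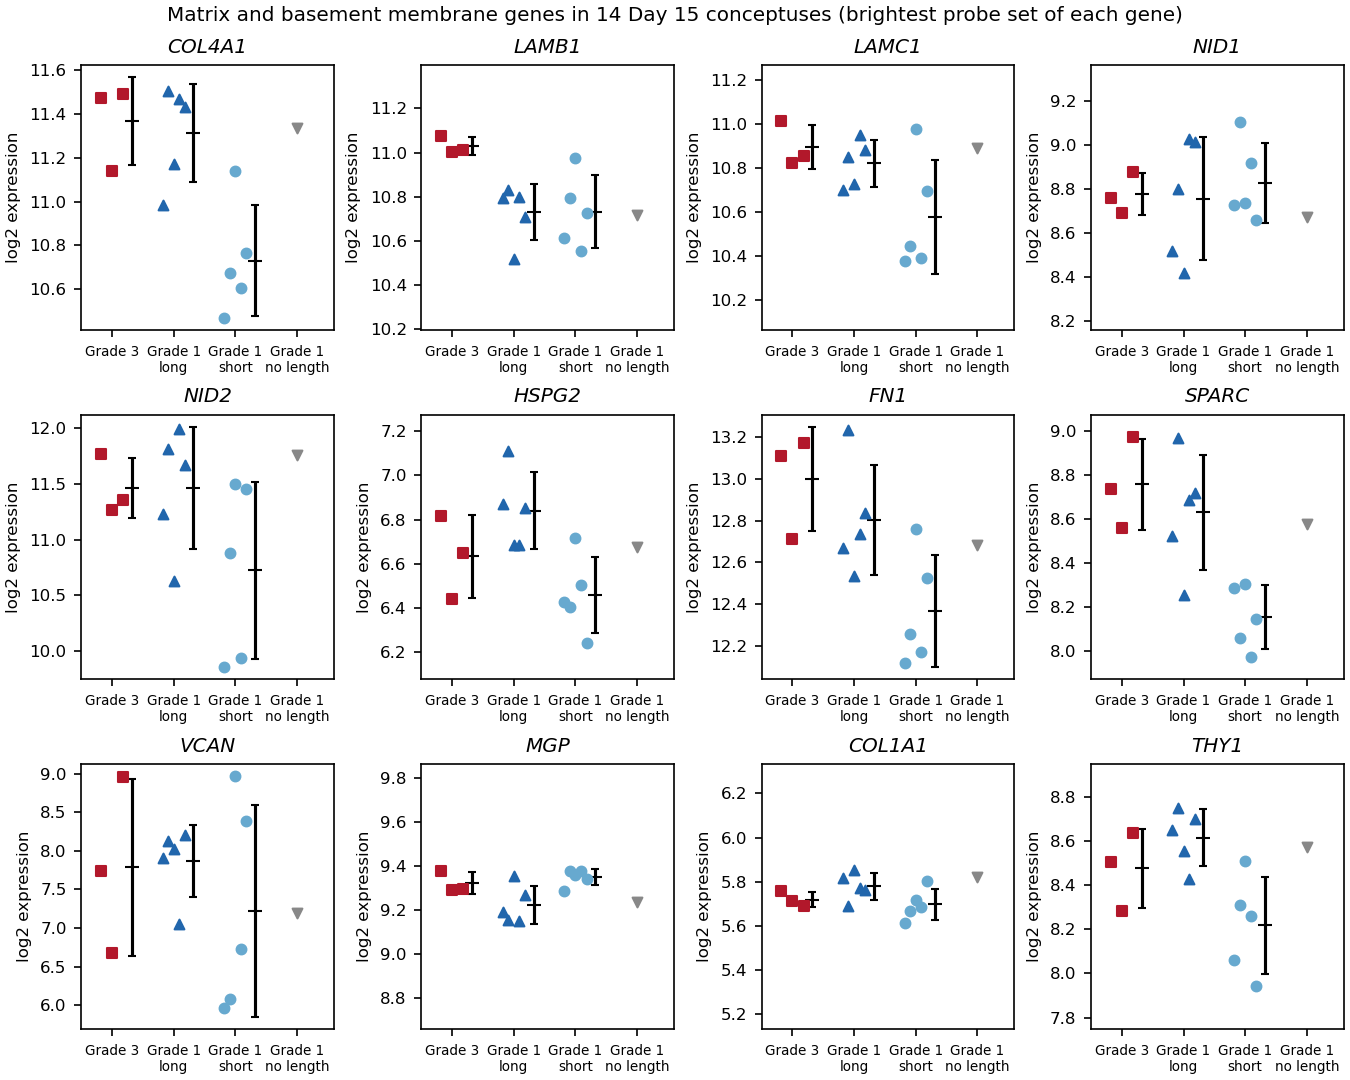
Log2 expression (vertical axis) of 12 members in each of the 14 conceptuses, by group (horizontal axis); points are conceptuses, and the bar beside them is the mean with its SD. In COL4A1 4 of 5 short conceptuses lie below every other conceptus, in LAMB1 the 3 Grade 3 conceptuses lie above all Grade 1 ones, and VCAN spans about 3 log2 units within the short group.

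COL4A1 encodes the alpha 1 chain of type IV collagen, the main chain of the collagen network of most basement membranes. In its brighter probe set the long conceptuses measured 10.98, 11.50, 11.17, 11.47 and 11.43, and the short ones 10.47, 10.67, 11.14, 10.61 and 10.76. Only short replicate 3, at 11.14, reached into the range of the long group. The log2 difference was 0.58 ± 0.13 (SE, 1.5 fold, limma adjusted p = 0.0312). The dimmer COL4A1 probe set, which followed the brighter one across conceptuses (r = 0.91, n = 14), differed by 0.40 ± 0.13 and did not pass (adjusted p = 0.106). Within the title prefix that held 2 long and 1 short conceptus the brighter probe set differed by 0.57, and within the prefix with 1 long and 2 short by 0.30. With the prefix as a fixed block in the fit the difference was 0.43 and was not called (adjusted p = 0.301). Such a fit, here and for the genes below, compares lengths only within these 2 prefixes. Conceptuses of prefixes with a single length add nothing to its difference, so it rests on fewer conceptuses than the main fit.

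The call for COL4A1 was marginal in other fits too. It held without short replicate 1 (difference 0.52, adjusted p = 0.0476), without short replicate 3 (0.0168) and without long replicates 1 and 3 (0.0308 and 0.0402). It missed the threshold without short replicates 2, 4 and 5 (adjusted p = 0.054, 0.0765 and 0.061) and without long replicates 2, 4 and 5 (0.0789, 0.0625 and 0.0749), and with short replicate 1 counted as long (difference 0.38, adjusted p = 0.299).

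In Grade 3 conceptuses COL4A1 measured 11.47, 11.14 and 11.49, against a lowest, median and highest Grade 1 value of 10.47, 11.14 and 11.50. All 3 Grade 3 values thus lay within the Grade 1 range, replicates 1 and 3 above its median and replicate 2 just below it (11.137 against 11.140). The difference of 0.32 ± 0.21 (SE) did not pass (limma adjusted p = 0.999; 95% interval -0.12 to 0.75). Set against the lengths apart, Grade 3 differed from long Grade 1 by 0.05 (adjusted p = 0.942) and from short Grade 1 by 0.64 (adjusted p = 0.234). These contrasts share the Grade 3 arrays with each other.

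The other type IV collagen genes on the array were COL4A3 and COL4A4, chains of the network that in adult mammals is found in kidney, lung and ear. Their 4 probe sets averaged 3.19 to 5.08, below the median probe set, and moved little: for long over short COL4A3 stood at 0.19 ± 0.10 (SE, adjusted p = 0.288) in its brighter probe set (0.094 without short replicate 1) and at -0.05 in the other, and COL4A4 at 0.05 and 0.01.

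Laminin chains were not called between lengths. LAMB1, the beta 1 chain of most embryonic laminins, measured 10.79, 10.83, 10.52, 10.80 and 10.71 in long conceptuses, against 10.61, 10.79, 10.98, 10.56 and 10.72 in short ones. The groups overlapped fully, and the difference was -0.0033 with a 95% interval of -0.20 to 0.20 (-0.033 without short replicate 1). LAMC1, the gamma 1 chain that pairs with it, had 6 probe sets, whose differences for long over short ran between -0.01 and 0.30 with 0 called; 1 of them stood at 0.038, and at 0.0058 without short replicate 1. Its brightest probe set, at 0.24 ± 0.11 (adjusted p = 0.24), passed only without short replicate 3 (0.34, adjusted p = 0.0491). The values of the probe sets of LAMC1 correlated with each other by between 0.04 and 0.86, so some of them may measure this gene poorly.

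By grade LAMB1 was the member with the smallest p. Grade 3 conceptuses measured 11.076, 11.004 and 11.010, and the 11 Grade 1 ones lay between 10.52 and 10.98 with a median of 10.72. LAMB1 was the only member whose Grade 3 and Grade 1 values did not overlap, 1 of 88 (1.14%) against 0.554% of all probe sets. The difference of 0.30 ± 0.08 (SE; 95% interval 0.12 to 0.48) had an unadjusted p of 0.00232 and an adjusted p of 0.811 in limma, so it did not pass. It was 0.30 against long Grade 1 and 0.30 against short Grade 1 (adjusted p = 0.395 and 0.341). Leaving out each conceptus in turn gave differences of 0.28 to 0.32. Because no title prefix held both grades, this difference cannot be told apart from one between prefixes.

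LAMC1 stood higher on average in Grade 3 in all 6 of its probe sets, by 0.05 to 0.32, with 0 called; the largest, 0.32 ± 0.14 (SE), had an adjusted p of 0.978, and a second one stood at 0.30 ± 0.13 (0.967). The remaining laminin genes, LAMA4, LAMB2 and LAMB3, lay below the median probe set and differed by -0.11 to 0.05 for long over short and by -0.16 to 0.16 for Grade 3 over Grade 1.

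The linkers of the basement membrane differed from each other in their values. HSPG2, which encodes perlecan, measured 6.87, 7.11, 6.69, 6.69 and 6.85 in long conceptuses and 6.43, 6.40, 6.71, 6.50 and 6.24 in short ones. Again only short replicate 3 overlapped the long group. HSPG2 rose by 0.38 ± 0.10 (SE, 1.30 fold, adjusted p = 0.0485). Its call held without short replicate 3 (0.45, adjusted p = 0.0317) and was lost in each of the 9 other fits that left out 1 conceptus, with adjusted p between 0.0526 (without long replicate 3) and 0.108 (without short replicate 5); without short replicate 1 it was 0.38 (0.0723), and with that conceptus counted as long 0.31 (0.2). With sex as a covariate HSPG2 had an adjusted p of 0.0529. Inside the 2 title prefixes that held both lengths, the difference was 0.59 and 0.08, and with the prefix as a fixed block it was 0.33 and not called (adjusted p = 0.300). Grade 3 conceptuses, at 6.81, 6.44 and 6.65, differed from Grade 1 by -0.02 ± 0.14.

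NID2, nidogen 2, had the largest difference of any member between lengths and was not called. Long conceptuses measured 11.23, 11.81, 10.63, 11.99 and 11.67, and short ones 9.85, 10.88, 11.50, 9.93 and 11.45. Short replicates 1 and 4 lay below all others, and short replicates 3 and 5 above 2 of the long ones. The difference was 0.74 ± 0.36 (SE; 95% interval -0.05 to 1.54, adjusted p = 0.261). NID1, nidogen 1, differed by -0.07 ± 0.13 over the same conceptuses, and by -0.0041 ± 0.12 for Grade 3 over Grade 1, where NID2 stood at 0.31 ± 0.40.

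Collagens of the basement membrane zone were flat or dim. COL18A1, the source of endostatin, averaged 6.43 ± 0.13 in the long group, against 6.35 ± 0.16 in the short group (SD, n = 5 each; adjusted p = 0.706), and 6.47 ± 0.14 in Grade 3 (SD, n = 3). COL15A1 in its dimmer probe set stood at -0.32 ± 0.21 (adjusted p = 0.426) and COL17A1, a collagen of hemidesmosomes, at -0.11 ± 0.07 (0.414), both at levels under 4.

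Fibronectin (FN1), which cells assemble into fibrils through integrins, measured 12.67, 13.23, 12.54, 12.74 and 12.84 in long conceptuses and 12.12, 12.26, 12.76, 12.17 and 12.53 in short ones. Short replicates 1, 2, 4 and 5 lay below every long conceptus and short replicate 3 among them. The difference of 0.43 ± 0.15 (SE, 1.35 fold) had an unadjusted p of 0.0128 and an adjusted p of 0.106, and so did not pass; over the alternatives tried the adjusted p lay between 0.0532 and 0.466. Grade 3 conceptuses measured 13.11, 12.71 and 13.17, against 12.12, 12.67 and 13.23 as the lowest, median and highest Grade 1 value. That difference was 0.40 ± 0.18 (95% interval 0.01 to 0.80, adjusted p = 0.981). The second FN1 probe set, at 3.51 ± 0.06 in long, against 3.39 ± 0.20 in short conceptuses (SD, n = 5 each), differed by 0.12 (0.067 without short replicate 1), and by 0.26 ± 0.10 (SE) for Grade 3 over Grade 1 (adjusted p = 0.962).

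SPARC, a matricellular protein that binds type IV collagen and other collagens, measured 8.52, 8.97, 8.26, 8.69 and 8.72 in long conceptuses and 8.29, 8.06, 8.31, 7.97 and 8.15 in short ones. Long replicate 3 was the one long conceptus within the short range. SPARC rose by 0.47 ± 0.12 (SE, 1.39 fold, adjusted p = 0.0421). It stayed called without short replicate 1 (0.51, adjusted p = 0.0441) and without long replicate 3 (0.57, 0.0187) and lost the call in the 8 other fits that left out 1 conceptus, with adjusted p between 0.0502 (without short replicate 3) and 0.0971 (without short replicate 4); with short replicate 1 counted as long the value was 0.45 (0.0911). The differences inside the 2 title prefixes were 0.68 and 0.12, and the prefix as a fixed block gave 0.40, not called (adjusted p = 0.315). Grade 3 conceptuses measured 8.74, 8.56 and 8.97, so that all 3 lay above all 5 short ones; the Grade 3 difference was 0.60 from short Grade 1 (adjusted p = 0.211), 0.13 from long Grade 1 (0.834) and 0.35 ± 0.17 from all Grade 1 (0.996).

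MGP, an inhibitor of matrix calcification, differed by -0.13 ± 0.06 (SE) for long over short in its brightest probe set (9.22 ± 0.09 in long, 9.35 ± 0.04 in short, SD, n = 5 each; adjusted p = 0.248). All 4 MGP probe sets were lower on average in long conceptuses, by -0.16 to -0.04, and none was called. Fibulin 1 (FBLN1), tenascin C (TNC) and periostin (POSTN) lay below the median probe set. Their largest difference between lengths was that of FBLN1, -0.14, and POSTN stood at -0.12 ± 0.07 (adjusted p = 0.371).

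VCAN, versican, a large hyaluronan-binding proteoglycan of loose provisional matrix, varied more between conceptuses than any other member. In its brightest probe set Grade 3 conceptuses measured 7.73, 6.67 and 8.96, long ones 7.91, 8.12, 8.03, 7.06 and 8.21, and short ones 5.96, 6.08, 8.97, 6.72 and 8.39. High and low values occurred within the Grade 3 and the short group alike: short replicate 3 and Grade 3 replicate 3 were the highest of all 14, about 3 log2 units above short replicates 1 and 2. The 3 VCAN probe sets followed each other across conceptuses (r between 0.95 and 0.98, n = 14), and their SD within groups, 0.95 to 1.06, was larger than that of 99.7% to 99.8% of all probe sets; at the median it was 0.15 over members and 0.15 over all.

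With that spread VCAN showed no difference that passed. For long over short its 3 probe sets stood at 0.64 to 0.69, with a 95% interval of -0.54 to 1.83 in the brightest (adjusted p = 0.547); the one at 0.69 stood at 0.45 without short replicate 1. For Grade 3 over Grade 1 they stood at 0.28 to 0.49, with an interval of -0.96 to 1.51. Both intervals hold 0 and also a difference of 1, which is 2 fold. The other proteoglycans spread less. BGN, biglycan, an X-linked gene, differed by -0.08 and -0.07 for long over short in its 2 probe sets and by 0.13 and 0.21 for Grade 3 over Grade 1 (smallest adjusted p 0.999), one of them a probe set whose probes may bind related transcripts. Decorin (DCN) and lumican (LUM), small proteoglycans of fibroblast matrix, averaged 3.18 and 2.72, and their differences ran between -0.0034 and 0.07 in these comparisons.

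**Figure D2:**
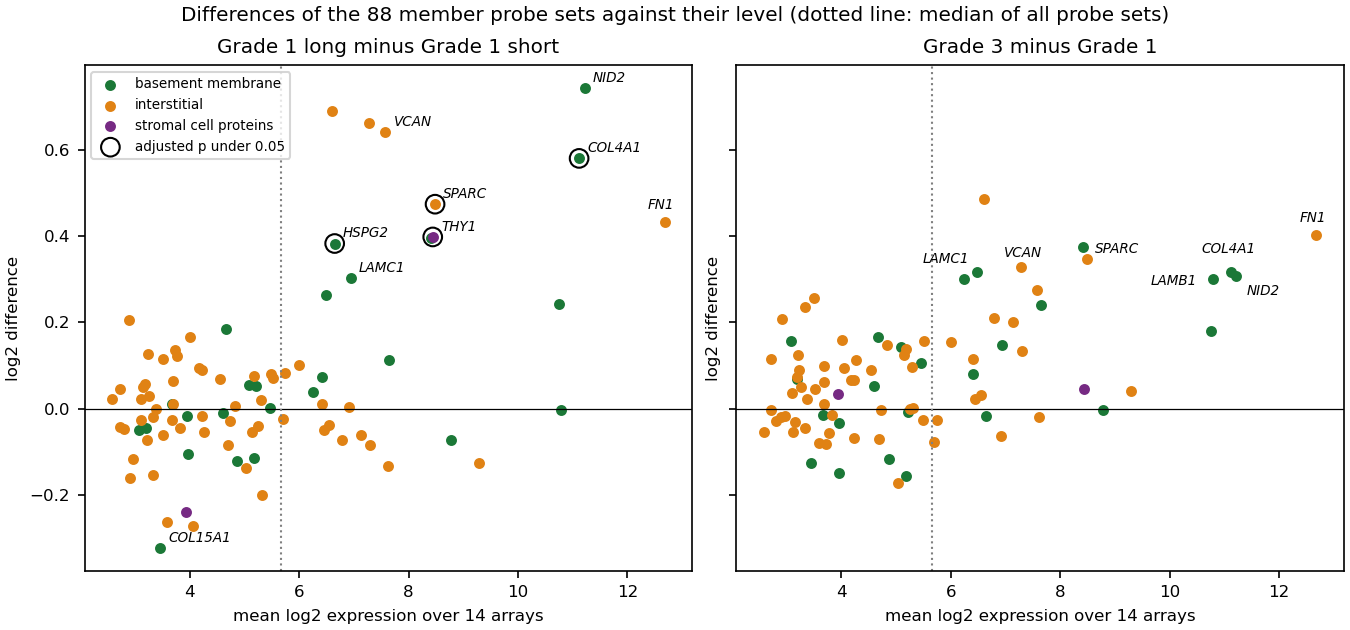
Log2 difference of each of the 88 member probe sets (vertical axis) against its mean log2 expression over 14 arrays (horizontal axis), for long minus short Grade 1 on the left and Grade 3 minus Grade 1 on the right; colours give the part of the matrix, rings mark an adjusted p under 0.05 and the dotted line is the median probe set. The 4 ringed members, COL4A1, HSPG2, SPARC and THY1, all lie to the right of that line, and 0 are ringed in the right panel.

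Fibrillar collagens, the load-bearing chains of connective tissue, gave little signal. Of their 22 probe sets 18 lay below the median probe set and 11 below the lower quartile (3.90). COL1A1 stood at 0.08 ± 0.06 (SE, adjusted p = 0.473) for long over short in its brighter probe set, and the dimmer one had the opposite sign (-0.15). COL1A2, at 3.15 in long and 3.23 in short conceptuses, and COL3A1, at 3.84 and 3.72, did not differ beyond their spread (adjusted p = 0.561 and 0.466).

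The fibrillar members nearest to the threshold were all dim. COL11A1 stood at -0.26 ± 0.09 (SE, adjusted p = 0.102) in a probe set at 3.58, while the 7 COL11A1 probe sets ranged from -0.26 to 0.20 for long over short. COL2A1, the collagen of cartilage, stood at -0.27 ± 0.13 (adjusted p = 0.258) in 1 of its 4 probe sets. For Grade 3 over Grade 1 the dimmer COL1A1 probe set had 0.24 ± 0.10 (adjusted p = 0.966), at 3.51 ± 0.05 in Grade 3 (SD, n = 3) and 3.28 ± 0.17 in Grade 1 (SD, n = 11), and the brighter one -0.03.

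Of the 15 probe sets of other collagens 13 lay below the median probe set. COL26A1 stood at -0.20 ± 0.08 (SE, adjusted p = 0.18) for long over short in its dimmer probe set and at -0.06 in the other, and COL13A1, a transmembrane collagen, at 0.17 ± 0.09 (0.31). COL6A2, a chain of beaded filaments, differed by 0.0040 at a level of 6.92. The elastic fibre genes ELN, FBN1, FBLN5 and LOX, which encode elastin, fibrillin 1, fibulin 5 and lysyl oxidase, differed by -0.05 to 0.09 for long over short and by -0.04 to 0.10 for Grade 3 over Grade 1.

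THY1, a glycoprotein of the surface of many mesenchymal and stem cells, measured 8.65, 8.75, 8.55, 8.43 and 8.70 in long conceptuses and 8.06, 8.31, 8.51, 8.26 and 7.95 in short ones. Short replicate 3 alone overlapped the long group. THY1 rose by 0.40 ± 0.11 (SE, 1.32 fold, adjusted p = 0.048). Only leaving out short replicate 3 kept the call (0.47, adjusted p = 0.0266); the other 9 such fits gave adjusted p between 0.0516 (without long replicate 4) and 0.112 (without long replicate 2), with 0.36 (0.0786) without short replicate 1, 0.27 (0.313) with it counted as long, and 0.0505 with sex as a covariate. The differences inside the 2 title prefixes were 0.39 and 0.17, and the prefix as a fixed block gave 0.28, not called (adjusted p = 0.299). Grade 3 conceptuses, at 8.51, 8.29 and 8.64, differed from Grade 1 by 0.05 ± 0.15. VIM, the intermediate filament protein of mesenchymal cells, lay at 3.76 ± 0.26 in long, against 4.00 ± 0.26 in short conceptuses (SD, n = 5 each), a difference of -0.24 ± 0.14 (SE, adjusted p = 0.368).

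Set side by side, the basement membrane part had 2 of 25 probe sets called for long over short and the interstitial part 1 of 61, against 6.57% of all probe sets called in either direction and 2.7% called higher; the remaining call was THY1. The median log2 difference was 0.04 over the basement membrane probe sets and 0.0040 over the interstitial ones, against -0.02 over all probe sets. Both medians lay near 0 and changed sign with 1 conceptus left out, running between -0.02 and 0.10 for the basement membrane (-0.010 without short replicate 1) and between -0.03 and 0.02 for the interstitial part (-0.030 without it), which was also -0.014 with arrays centred. Among probe sets above the median level it was 0.25 over 12 basement membrane probe sets, 10 of them higher in long conceptuses, and 0.0040 over 17 interstitial ones, 9 of them higher, against -0.04 over all such probe sets. Of those 12, 5 measure LAMC1 and 2 COL4A1, so they are not independent of each other. The gap between the parts was not tested, since genes are not replicates.

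By grade no member passed: limma called 0 of 88 member probe sets for Grade 3 over Grade 1, and 0% of all. At an unadjusted p under 0.05 there were 6 members (6.82%), against 5.06% of all probe sets. All 6 were higher in Grade 3 (2.52% of all probe sets) and 0 lower (2.54%): both FN1 probe sets, LAMB1, 2 of LAMC1 and 1 of COL1A1. On average 57 of 88 members were higher in Grade 3 (64.8%, against 50.9% of all probe sets). Among probe sets above the median level the median difference was 0.27 over the 12 basement membrane ones and 0.13 over the 17 interstitial ones, against -0.01 over all.

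When the lengths were kept apart in 1 fit of all 14 arrays, Grade 3 over short Grade 1 gave 0 called members (0% of all called) and 13 with an unadjusted p under 0.05 (14.8%, against 10.6% of all), 12 of them higher (13.6%, against 4.12% of all) and 1, COL17A1, lower (1.14%, against 6.5%). Grade 3 over long Grade 1 gave 0 called (0% of all) and 4 at that level, all higher (4.55%, against 4.51% of all higher and 9.06% in either direction). Means were higher in Grade 3 for 62 members against short (70.5%, against 48.1% of all probe sets) and for 62 against long Grade 1 (70.5%, against 55.4%). Values did not overlap in 6 members for Grade 3 and short Grade 1 (6.82%, against 6.08% of all) and in 2 for Grade 3 and long Grade 1 (2.27%, against 7.14%). These comparisons share arrays with each other and with the comparison of lengths, so the values below are given side by side and are not independent. COL4A1 stood at 0.64 from short and 0.05 from long Grade 1, FN1 at 0.63 and 0.20, NID2 at 0.74 and -0.0040, HSPG2 at 0.18 and -0.21, and LAMB1 at 0.30 and 0.30.

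**Figure D3:**
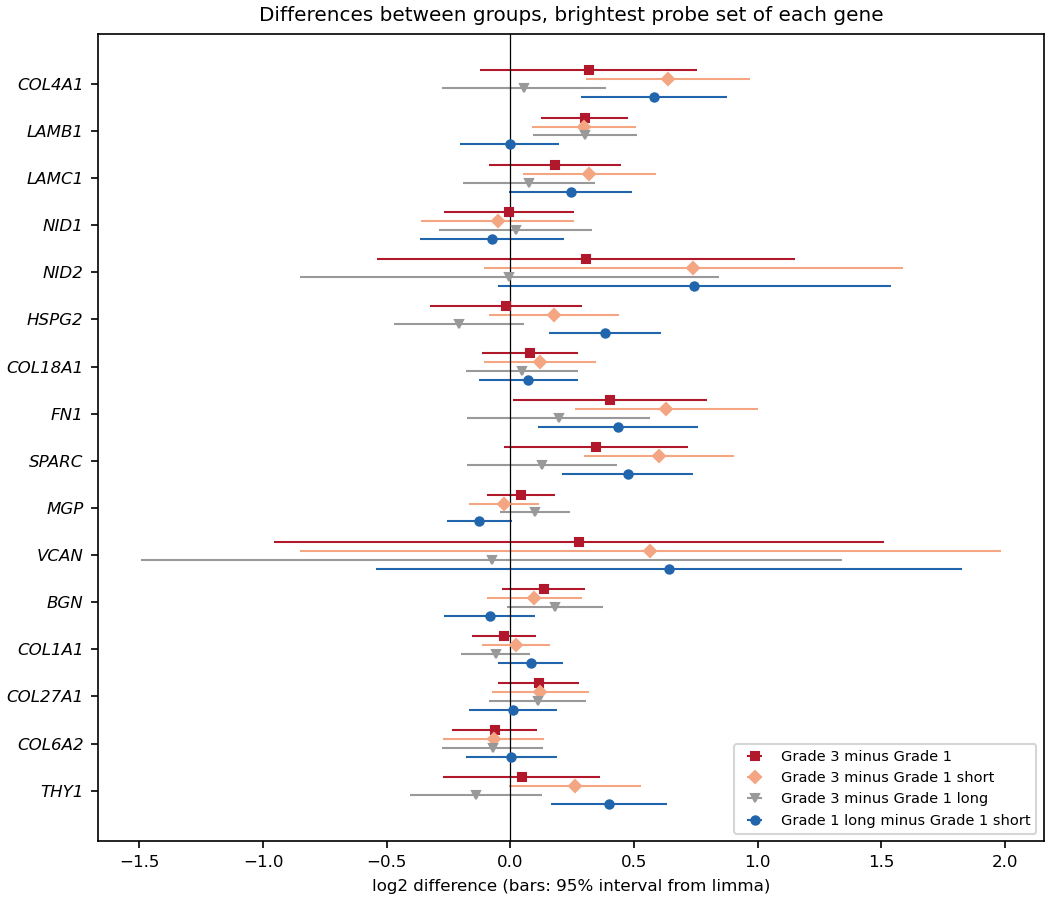
Log2 difference (horizontal axis) of the brightest probe set of 16 members (rows) for 4 comparisons, with 95% intervals from limma. LAMB1 lies at 0.30 for Grade 3 against either length and at -0.0033 between lengths, whereas COL4A1 and SPARC lie at 0.47 or above against short conceptuses and at 0.05 and 0.13 for Grade 3 against long ones; VCAN and NID2 have the widest intervals.

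Several members varied together across conceptuses. The brightest probe set of COL4A1, taken as the anchor after its values had been seen, was correlated with that of each of the other 46 genes over all 14 conceptuses. After Benjamini-Hochberg adjustment over the 46, Pearson's r passed for 8 genes, all positive, and for 4 of these Spearman's rho passed too. COL4A1 was not correlated with all probe sets. How common such correlations are over the array is therefore not known, and they are not shown to be particular to matrix genes. FN1 had r = 0.90 and rho = 0.93 (permutation p = 2e-05 for each, adjusted p = 0.000613 and 0.00092). LAMC1 had r = 0.90 and rho = 0.78 (permutation p = 3e-05 and 0.00171, adjusted 0.000613 and 0.0197), SPARC r = 0.86 and rho = 0.89 (4e-05 and 5e-05, adjusted 0.000613 and 0.00115), and NID2 r = 0.82 and rho = 0.79 (0.00041 and 0.00115, adjusted 0.00472 and 0.0176).

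For those 4 genes r with COL4A1 stayed positive without the extreme conceptuses and fell most for NID2. No p was computed without them. Leaving out short replicates 1 and 4, the farthest from the median of COL4A1, left r at 0.83 for FN1, 0.81 for LAMC1, 0.89 for SPARC and 0.62 for NID2. With each group's mean removed, over the 13 conceptuses of the groups with more than 1, r was 0.84, 0.85, 0.61 and 0.76. For THY1 and HSPG2 Pearson's r was 0.77 and 0.71 (permutation p = 0.0014 and 0.00453, adjusted 0.0129 and 0.0347), but rho, 0.71 and 0.63, did not pass (adjusted 0.059 and 0.137). With group means removed their r was 0.51 and 0.51. COL4A1, SPARC, THY1 and HSPG2 were all called for length, and the permutations ignored the groups. Their p-values thus include the shared difference between lengths, and no p was computed with group means removed. The other 2 genes whose r passed, the dim COL13A1 and COL4A3 (r = 0.68 and 0.65), fell further, to 0.42 and 0.27, without the 2 farthest conceptuses and so rest on them in part. No title prefix held more than 4 conceptuses, so no value within a prefix is given.

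**Figure D4:**
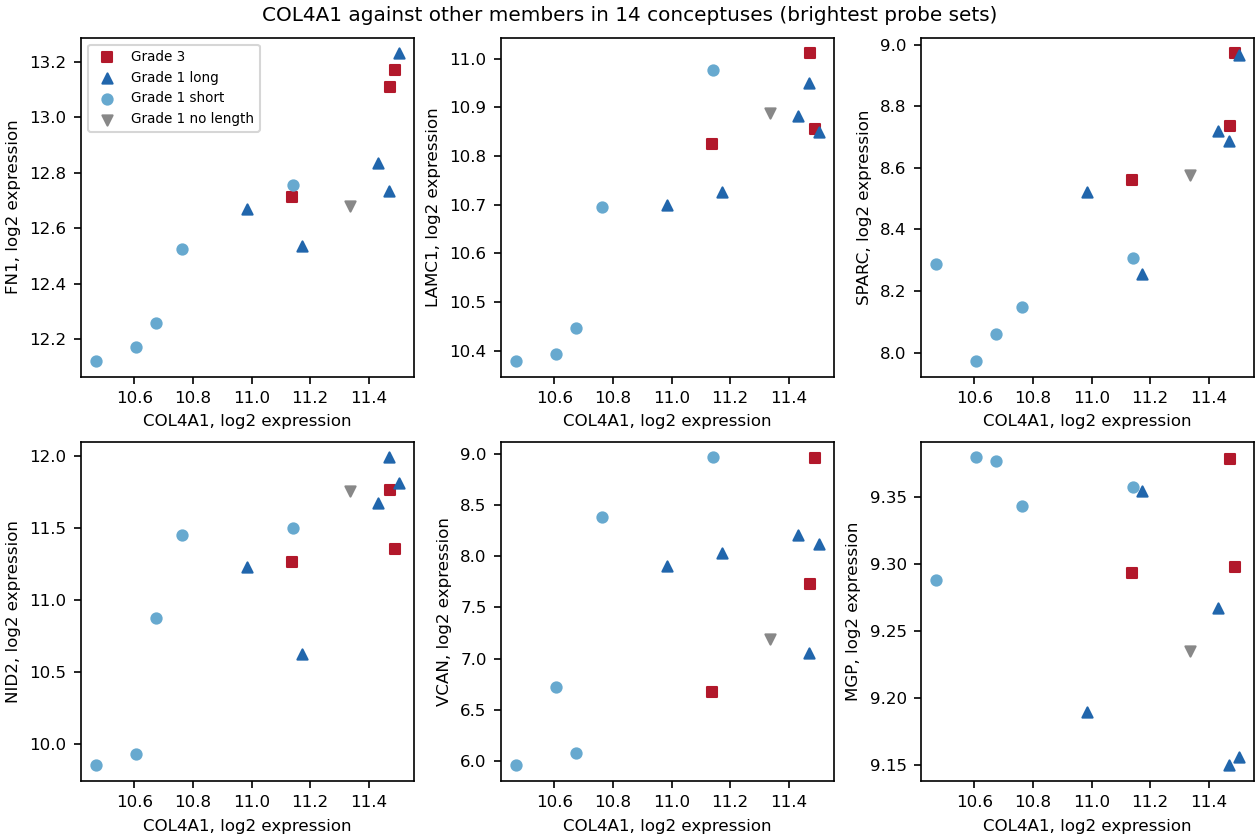
Log2 expression of 6 members (vertical axes) against that of COL4A1 (horizontal axes) in 14 conceptuses, marked by group. With the 14 conceptuses pooled, FN1, LAMC1, SPARC and NID2 climb with COL4A1 (r between 0.82 and 0.90), while VCAN (r = 0.56) scatters and MGP (r = -0.44) does not climb. These r values include the differences between groups.

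For LAMB1, NID1, VCAN and MGP, r with COL4A1 was 0.50, 0.05, 0.56 and -0.44, and none of them passed (adjusted p = 0.23, 0.942, 0.18 and 0.336). With group means removed r was 0.63 for LAMB1 and 0.63 for VCAN, 0.39 for NID1 and -0.02 for MGP. Differences between correlations were not tested. Among the 27 genes whose brightest probe set lay below the median level, r had a median of 0.12.

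**Figure D5:**
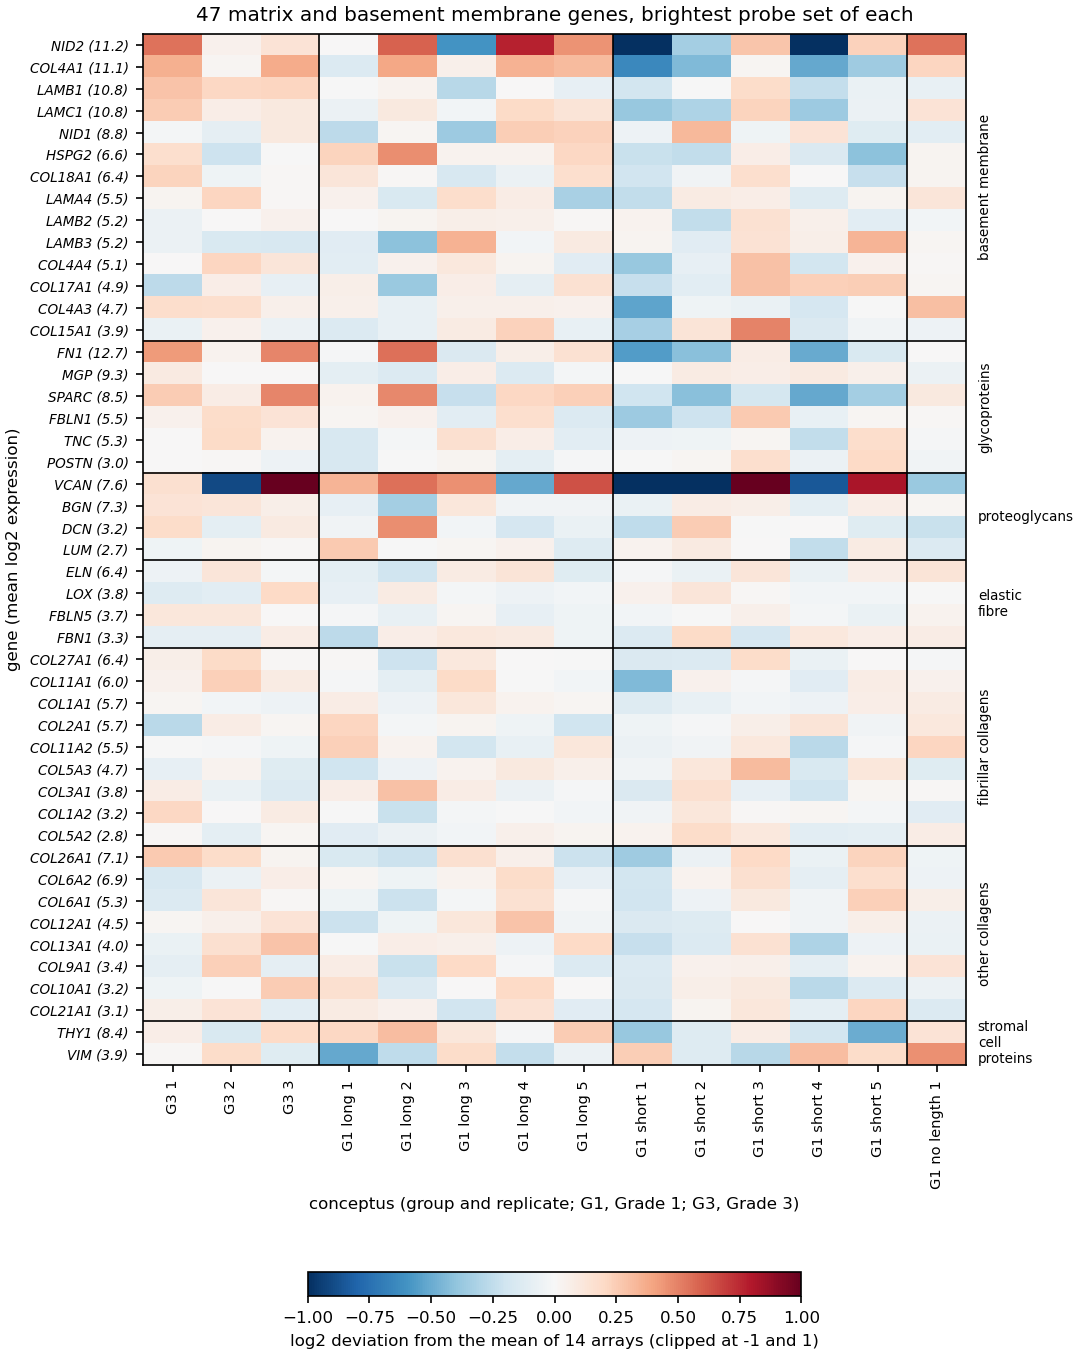
Deviation of the brightest probe set of each of the 47 genes (rows, grouped by role, mean log2 expression in parentheses) from its mean over 14 arrays, for each conceptus (columns); red is above and blue below the mean, clipped at 1 log2 unit. Short replicates 1, 2 and 4 are blue in COL4A1, LAMC1, NID2 and FN1, short replicate 3 is not, and most fibrillar and other collagens are pale throughout.

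Enzymes that fold, modify and crosslink collagens did not pass. Of 20 measured genes 0 were called in either comparison, with a median difference of 0.07 for long over short and 0.03 for Grade 3 over Grade 1 (all probe sets -0.02 and 0.0024). The 3 with the smallest p for length were the collagen chaperone FKBP10 at 0.29 ± 0.10 (SE, adjusted p = 0.0967), the lysyl oxidase relative LOXL4 at 0.46 ± 0.16 (0.104) and the prolyl hydroxylase subunit P4HA1 at 0.29 ± 0.11 (0.153); for grade they were the collagen chaperone SERPINH1 at 0.26 ± 0.11, FKBP10 at 0.30 ± 0.13 and P4HA1 at 0.23 ± 0.13. Of 18 measured matrix receptors 1 rose with length, the integrin ITGAV, which binds fibronectin with a beta partner, by 0.55 ± 0.14 (adjusted p = 0.0444), and 0 fell; the list's median was -0.03. The glypican GPC3 at 0.41 ± 0.12 (0.0591) and the syndecan SDC2 at -0.80 ± 0.28 (0.12) came next. Of all probe sets, 2.7% were called higher for length.

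Markers of other cells moved in part with the members. Of 11 measured hypoblast and endoderm genes 2 rose in long conceptuses, the retinol carrier RBP4 by 1.30 ± 0.24 (SE) and the apolipoprotein APOA1 by 0.59 ± 0.10, and 1 fell: the receptor PDGFRA stood at -1.80 ± 0.21 (adjusted p = 0.00759) in its brightest probe set. The other PDGFRA probe sets stood at 0.22 and -0.13 and were not called. The transcription factors GATA4, GATA6 and HNF4A did not pass. For comparison, 2.7% of all probe sets were called higher and 3.87% lower. The mean level of the list was 7.48 to 7.79 in long, against 7.43 to 7.93 in short conceptuses. Over 14 conceptuses and a family of 19 hypoblast and trophectoderm genes, RBP4 and APOA1 were the ones whose r with COL4A1 passed: r = 0.91 and rho = 0.95 for RBP4 (permutation p = 4e-05 and 2e-05, adjusted 0.00076 and 0.00038), and r = 0.88 and rho = 0.84 for APOA1 (0.00013 and 0.00038, adjusted 0.00124 and 0.00361). Without the 2 conceptuses farthest in COL4A1 these were 0.83 and 0.85, and with group means removed 0.82 and 0.59. PDGFRA had r = -0.64 and rho = -0.64, which did not pass (permutation p = 0.0159 and 0.0161, adjusted 0.0756 and 0.102), and r was -0.06 with group means removed. GATA6 had r = -0.44, GATA4 0.12 and IFNT2 0.55 (adjusted p = 0.28, 0.743 and 0.132).

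Between long and short conceptuses 2 of 8 trophectoderm genes rose and 1 fell, and 1 of 9 endothelial genes rose and 1 fell. Of the blood and immune genes 1 of 12 fell, as did 1 of 3 epiblast genes, and 0 of 8 endometrial and 0 of 2 mesoderm genes passed. The 2 mesoderm genes had opposite signs, SNAI1 at -0.78 ± 0.21 (SE, limma adjusted p = 0.051) and HAND1 at 1.59 ± 0.49 (0.0745). Over all probe sets 2.7% were called higher in long conceptuses and 3.87% lower. The mean level of the endothelial list was 3.88 to 4.00 in long and 3.90 to 3.99 in short conceptuses. For Grade 3 over Grade 1, 0 genes of these lists passed. The part of any of these cells in the differences of the matrix genes was not tested.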

How the data were processed

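The deposited table holds log2 expression per probe set, which the authors computed by RMA; per the submitters' processing notes the program was Expression Console of Affymetrix. Its version and the set of arrays normalised jointly were not stated in what was used here. RMA compresses differences at low signal, and its quantile step removes a shift common to all genes. Per the labels, 250 ng of RNA was labelled per conceptus. Of 24128 probe sets 112 array controls were left out. Symbols came from the platform annotation: 13292 probe sets had 1 symbol, 86 several and 10638 none. All 88 member probe sets matched the RefSeq gene table by Entrez number.

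Differences were fitted with limma 3.58.1 (lmFit, eBayes; R 4.3.3) over 24016 probe sets, two-sided, with Benjamini-Hochberg adjustment and a threshold of 0.05. Long and short used their 10 arrays and grade all 14; Grade 3 against each length used 1 fit with 4 group means. The design text gives 4 Grade 1 conceptuses for grade without naming them, so all 11 were used. The fits were also run on simulated data with independent noise for each probe set and conceptus. That setting holds no title prefixes or shared dams, so it does not bear on their effect, and no result here rests on it. Correlations used 100000 permutations over all 14 conceptuses regardless of group, two-sided, in Python 3.11.15. At the median member the 95% interval of a difference reached 0.20 to each side for length and 0.21 for grade; the number of arrays limits this, and there is no read depth. Named are all called members, the 20 genes of smallest p for length, the 6 probe sets of smallest p for grade and 12 preset genes, of which 10 had a probe set. Members and lists were chosen with earlier results of these data known. Alternatives tried were array centring, a further quantile normalisation, moderation with a trend, sex, a filter on dim probe sets, the disputed length label, the title prefix as a block, other sample sets and leaving out each conceptus.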

Additional observations from a re-analysis of the deposited data

Results flagged for a closer look

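Of 54 sets of 5 values, the named probe sets in the long and the short group, 2 held a conceptus far from the others; chance alone flags about 1 in 20. Both were long replicate 2. In COL1A2 it measured 2.98, where the other 4 long conceptuses lay between 3.18 and 3.21. In COL4A3 it measured 4.59, where they lay between 4.71 and 4.72. Both probe sets are dim.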

How the results depend on the processing

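The count of members called for long over short was 4, and remained 4 with arrays centred, a further quantile normalisation, moderation with a trend, dim probe sets left out, the title prefix as a random block and all 14 arrays in 1 fit. It was 2 with sex as a covariate, 2 with short replicate 1 left out and 0 with it counted as long. It was also 0 with the prefix as a fixed block, which compares lengths only within the 2 prefixes that held both. Leaving out 1 conceptus in turn gave 0 to 5. It was 0 without short replicates 2, 4 and 5 and without long replicates 2, 4 and 5, 1 without long replicate 1, 2 without long replicate 3 and 5 without short replicate 3. The share of all probe sets called in each of these fits is not given here. The counts therefore do not show whether members lost calls more than other genes did. For grade the count was 0 under every alternative run, as it was for Grade 3 against either length. With dim probe sets left out, the median differences were 0.25 (basement membrane, length), 0.27 (basement membrane, grade) and 0.13 (interstitial, grade), against 0.04, 0.11 and 0.05 over all members. Leaving out 1 conceptus gave medians for length of -0.02 to 0.10 (basement membrane) and -0.03 to 0.02 (interstitial), and for grade of 0.08 to 0.12 and 0.02 to 0.07. The sign of 3 uncalled differences near 0 turned for long over short. LAMB1 (-0.0033) became 0.021 with a further quantile normalisation and ran between -0.047 and 0.057 with 1 conceptus left out. A LAMC1 probe set at 0.038 became -0.022 with short replicate 1 counted as long, and -0.0034 and -0.22 with the prefix as a random and as a fixed block, and ran between -0.043 and 0.12. NID1 (-0.074) ran between -0.14 and 0.010. The causes were not tested. The labels give no replicate numbers that pair conceptuses across groups, so the title prefix was the only block tried.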
